A study of Mus musculus with 24 samples.

Results

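Wnt7b, Cthrc1, Wnt5a, Fzd1, Fzd2, Fzd7, Ror2 and Axin2, 8 genes of the Wnt pathway, were followed in CD45+ cells taken from mammary tumors of mice. The genes were chosen by symbol, with Wnt7b and Cthrc1 picked because their values differed between T-PNU and untreated tumors. Of the 8, 7 had a row among the 16996 genes measured, and Ror2 had none. The tumors grew from EMT6-hHER2, a murine breast cancer line made to express human HER2 and isolated as 1 clone, in the mammary fat pad of female Balb/c mice of WT genotype and 10 to 12 weeks of age. The 24 mice, with 1 RNA-seq library each, formed 4 groups of 6. All received the same tumor cells, and when tumors reached 80 mm3 they were left untreated or given 1 intravenous dose of the anti-HER2 antibody trastuzumab (20 mg/kg), of T-DM1 (15 mg/kg) or of T-PNU (1 mg/kg). T-DM1 is trastuzumab carrying a maytansinoid that blocks microtubules, and T-PNU is trastuzumab carrying a derivative of the anthracycline PNU-159682, which damages DNA. Tumors were taken on day 10 and CD45+ cells were enriched with magnetic beads.

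Wnt proteins are secreted, lipid-modified ligands that bind Frizzled receptors at the cell surface. With the co-receptors Lrp5 or Lrp6 they protect β-catenin from a destruction complex built on the Axin proteins, and β-catenin with TCF/LEF factors then switches on target genes, Axin2 among them, which feeds back on the pathway. Wnt5a mostly acts through Ror2 and other receptors without β-catenin, and Cthrc1, a secreted collagen-associated protein of activated fibroblasts, can hold Wnt, Frizzled and Ror2 together. Wnt7b is a ligand known from embryonic epithelia, from macrophages of mammary tumors and from tumor cells.

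The pan-leukocyte markers were present in every library: Ptprc, which encodes CD45, ran from 14.0 to 15.5 on the log2 scale of the normalized values. Markers of other cells were present too, with Col1a2 from 13.5 to 16.2 and Krt8 from 11.7 to 13.8. The study reports a high purity of the CD45+ cells by flow cytometry. Its methods place the harvest at a time when T-PNU tumors had become smaller than at treatment. The study's heatmaps show 20 of the 24 samples and leave out 4, the untreated mice B1 and C1 with the trastuzumab mice B3 and E2. The study's methods describe a search for outliers by similarity between samples, without naming the samples removed. All 24 were fitted here and the fit of the 20 is given where it changes a call. The column headers number the untreated mice 288 to 293 and the treated mice from 500 up, so a difference between these 2 series cannot be told apart from one between untreated and treated mice. In RNA from mixed cells, fewer cells of a type and less RNA per cell cannot be told apart.

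For Axin2, Fzd1 and Fzd7, whose values moved together or against each other over the mice (below), the 250 bases before the RefSeq start of the gene are shown (GRCm38.p6, 5′ to 3′), since Axin2 is read as a β-catenin target. Capitals mark CTTTGA, a form of the core of the TCF/LEF motif, or its reverse complement TCAAAG, searched on both strands. Other forms of the motif were not searched. The sequence table held 3 of the 7 measured genes.
Axin2 (chr11:108920099-108920348, plus strand): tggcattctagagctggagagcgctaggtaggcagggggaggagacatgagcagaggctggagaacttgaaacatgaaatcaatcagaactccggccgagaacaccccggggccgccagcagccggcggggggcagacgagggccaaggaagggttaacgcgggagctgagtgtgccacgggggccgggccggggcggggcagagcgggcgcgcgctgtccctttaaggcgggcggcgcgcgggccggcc
Fzd1 (chr5:4758217-4758466, minus strand): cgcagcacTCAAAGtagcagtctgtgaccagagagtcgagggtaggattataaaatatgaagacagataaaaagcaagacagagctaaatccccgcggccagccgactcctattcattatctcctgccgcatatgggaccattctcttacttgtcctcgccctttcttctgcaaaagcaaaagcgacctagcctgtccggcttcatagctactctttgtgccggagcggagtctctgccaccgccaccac
Fzd7 (chr1:59481897-59482146, plus strand): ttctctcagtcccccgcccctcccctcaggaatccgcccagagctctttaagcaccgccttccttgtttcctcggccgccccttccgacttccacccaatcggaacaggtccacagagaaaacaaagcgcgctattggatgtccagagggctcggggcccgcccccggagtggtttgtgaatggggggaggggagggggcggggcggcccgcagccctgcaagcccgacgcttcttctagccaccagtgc
The Fzd1 promoter held 1 match to this form, which starts at position -242 from the gene start, and the windows of Axin2 and Fzd7 held 0. With other forms not searched, these counts do not tell which windows hold or lack a TCF/LEF site. Of 32851 promoter windows of this length, 13.8% held the searched form. The Axin2 window was 69.2% G and C, the Fzd7 window 65.2% and the Fzd1 window 51.2%, beside a median of 52.4% over all windows. These letters describe the windows only.

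The members spanned a wide range of levels. On the log2 scale of normalized value per kb of exon, the mean over 24 mice was 9.26 for Cthrc1, 7.55 for Fzd1, 7.22 for Fzd7, 6.98 for Wnt7b, 5.61 for Axin2, 4.65 for Fzd2 and 1.05 for Wnt5a. Cthrc1 stood above Fzd1 and Fzd2 above Wnt5a in 24 of 24 mice, and Fzd1 above Fzd7 in 23. Fzd7 and Wnt7b did not keep an order, with Fzd7 above Wnt7b in 11 of 24 mice, and the steps from Wnt7b to Axin2 (19 of 24) and from Axin2 to Fzd2 (18 of 24) were smaller than their own spread, with a mean difference of 1.38 ± 1.59 and 0.96 ± 1.26 (SD, n = 24). Wnt5a lay near the bottom of the table, with a higher mean than only 16.4% of genes, so its small differences rest on low values of unknown depth. Wnt7b, Cthrc1 and Axin2 were among the genes that varied most between mice: their SD over the 24 samples exceeded that of 98.3%, 98.2% and 98.9% of all genes. Fzd2 exceeded 94.7%, Wnt5a 72.9%, Fzd1 70.6% and Fzd7 59.9%.

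The ligand Wnt7b was lowest in T-PNU tumors. Its log2 normalized value ran from 7.83 (median 9.54) to 10.11 in untreated mice, from 8.58 (median 9.79) to 10.31 with trastuzumab, from 9.52 (median 9.81) to 10.11 with T-DM1 and from 7.36 (median 8.34) to 9.36 with T-PNU. All 6 T-PNU values lay below all 6 T-DM1 values, while untreated C1 at 7.83 and trastuzumab E2 at 8.58 reached into the T-PNU range. The T-DM1 mice were the most alike (SD 0.20), against an SD of 0.82 in untreated, 0.65 in trastuzumab and 0.77 in T-PNU mice.

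Cthrc1, which encodes a secreted protein made in matrix-forming cells, had a similar pattern over the samples. It ran from 8.88 (median 10.27) to 10.68 in untreated mice, from 8.63 (median 10.21) to 11.11 with trastuzumab, from 10.36 (median 10.65) to 10.81 with T-DM1 and from 8.25 (median 9.06) to 9.73 with T-PNU. Again the lowest untreated and trastuzumab mice were C1 and E2, and the T-PNU and T-DM1 groups did not overlap. Within T-PNU, C2 and H1 held the lowest values of both genes (7.36 and 7.59 for Wnt7b, 8.25 and 8.49 for Cthrc1), and A2 and G1 the highest (9.36 and 8.97 for Wnt7b, 9.73 and 9.57 for Cthrc1). The study calls both of the latter tumors low-responding, which the sample labels do not carry, so the T-PNU mice were not divided.

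The second ligand, Wnt5a, which signals largely without β-catenin, went the other way. It ran from 3.64 to 4.23 in untreated, 3.75 to 4.17 in trastuzumab and 3.79 to 3.96 in T-DM1 mice, and from 3.86 to 4.79 (median 4.41) with T-PNU. Of the 6 T-PNU mice, 4 lay above all untreated mice, while A2 and C2 lay within their range.

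Of the receptors, Fzd2 differed most between groups. Its values ran from 5.68 (median 6.42) to 6.77 in untreated mice, from 6.05 (median 6.53) to 7.02 with trastuzumab, from 6.70 (median 7.23) to 7.54 with T-DM1 and from 5.46 (median 6.10) to 6.40 with T-PNU. T-DM1 mice were the highest group, with 5 of 6 above all untreated mice and 6 of 6 above all T-PNU mice. Fzd1 and Fzd7 moved little: group means of Fzd1 ran from 9.39 ± 0.37 (SD, n = 6) with T-PNU to 9.83 ± 0.17 with trastuzumab, and those of Fzd7 from 9.26 ± 0.38 with T-PNU to 9.60 ± 0.17 with T-DM1. In both, T-PNU C2 was the lowest mouse of the series (8.75 and 8.73), and for Fzd1 untreated B1 came next at 8.87.

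Axin2, the feedback inhibitor that is read as a sign of β-catenin signaling, had a wide spread inside each group. It ran from 6.90 (median 7.55) to 10.19 in untreated mice, from 7.20 (median 7.30) to 8.73 with trastuzumab, from 6.90 (median 8.01) to 8.97 with T-DM1 and from 7.20 (median 8.49) to 10.41 with T-PNU. The groups overlapped, and the 2 highest mice were T-PNU C2 at 10.41 and untreated B1 at 10.19. The T-PNU mice A2 and G1 were the lowest of their group at 7.55 and 7.20.

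**Figure D1:**
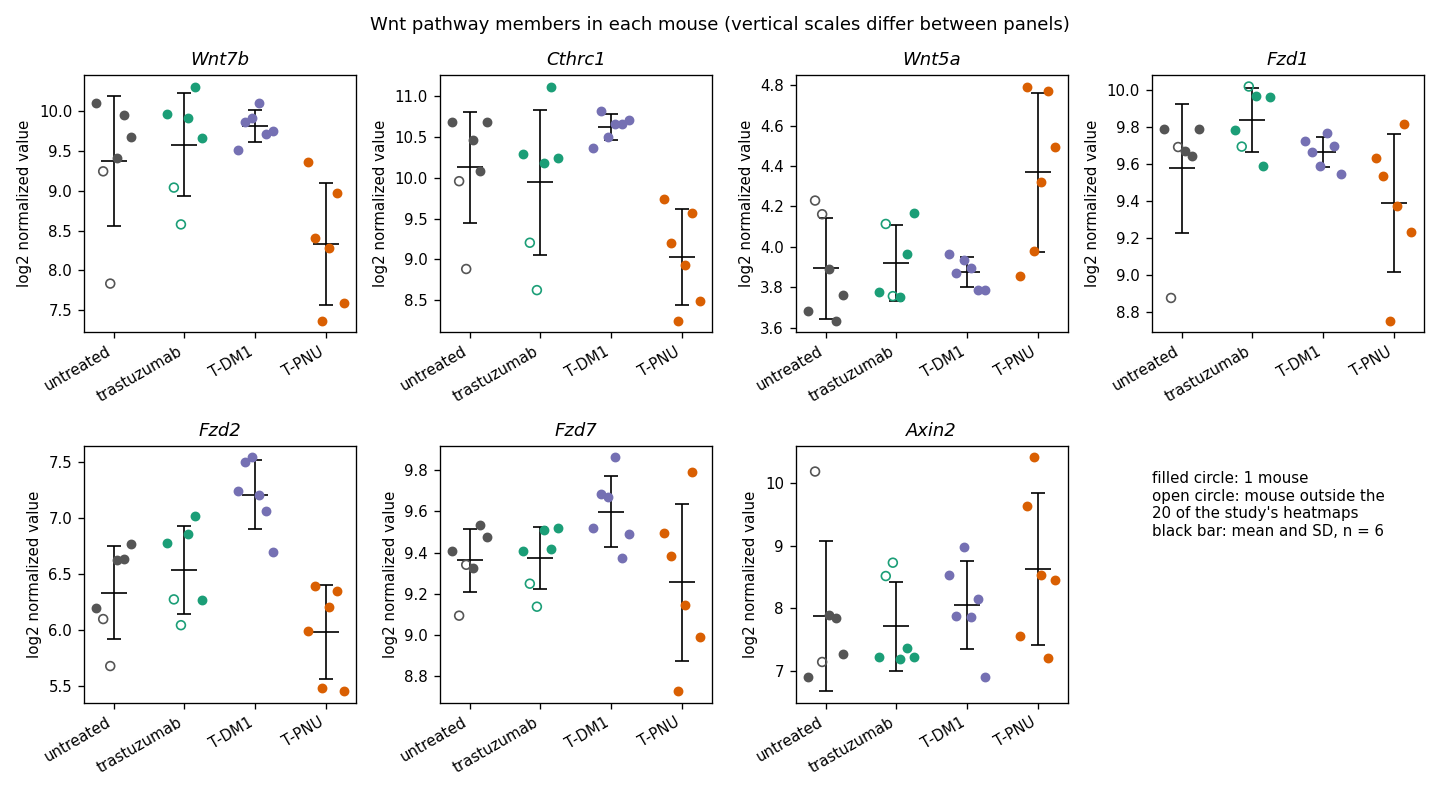
Log2 normalized value (vertical axis) of the 7 measured genes in each of 24 mice by group (horizontal axis), with filled circles for the 20 mice of the study's heatmaps, open circles for the other 4 and black bars for mean and SD (n = 6). Wnt7b and Cthrc1 in T-PNU lie below every T-DM1 mouse, and the open circles include the lowest untreated and trastuzumab mice of both genes.

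The members were first set against untreated tumors, the comparison from which Wnt7b and Cthrc1 had been picked, so these values are a description with no test. The log2 fold change of T-PNU over untreated was -1.04 ± 0.36 (SE) for Wnt7b and -1.09 ± 0.34 for Cthrc1, which is 0.485 and 0.468 times the untreated level. Wnt5a stood at 0.48 ± 0.14, Axin2 at 0.75 ± 0.53, Fzd2 at -0.35 ± 0.21, Fzd1 at -0.19 ± 0.15 and Fzd7 at -0.11 ± 0.13. Without the 4 samples outside the heatmaps, Wnt7b came to -1.46 ± 0.28, Cthrc1 to -1.45 ± 0.24, Fzd2 to -0.58 ± 0.21 and Axin2 to 1.15 ± 0.48.

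Among the other pathway genes, 0 of 100 measured passed an adjusted p under 0.05 in that comparison (limma, Benjamini-Hochberg over all genes), against 0.188% of all genes, and 24 had an unadjusted p under 0.05. The share of all genes at an unadjusted p under 0.05 is not given, here or below. Such counts therefore do not set the members or the pathway apart. In the fit of 20 samples 31 of the 100 were called, 16 higher and 15 lower, beside 31.1% of all genes (15.3% higher and 15.7% lower), about the same share. Leaving out untreated C1 alone gave 8 called genes, leaving out T-PNU G1 gave 5, and 1 was called without T-PNU A2 or trastuzumab E2. The largest differences over 24 samples by role were the following, none of them called. The T cell transcription factors and β-catenin partners Lef1 and Tcf7 stood at 1.41 ± 0.91 (adjusted p = 0.323) and 1.27 ± 0.61 (adjusted p = 0.200). The ligand Wnt5b stood at 0.43 ± 0.28, the Wnt carrier Wls at -0.37 ± 0.17, the receptor Fzd6 at -0.61 ± 0.23 and the Wnt-binding receptor Ryk at -0.71 ± 0.23. The secreted decoy Sfrp2 stood at 0.70 ± 0.28, the R-spondin Rspo2, which amplifies Wnt signals, at -0.87 ± 0.30, the Dishevelled gene Dvl3 at 0.30 ± 0.11 and the planar polarity cadherin Celsr1 at 1.05 ± 0.50. On the 20 samples Lef1 (2.18, adjusted p = 0.0490) and Tcf7 (1.81, adjusted p = 0.0186) rose and Rspo2 (-1.18, adjusted p = 0.00493), Ryk (-0.95, adjusted p = 0.00514) and Fzd6 (-0.85, adjusted p = 0.00734) fell by limma. Markers of other cells moved in the same fit: 11 of 11 T cell markers rose (median 1.60), and 6 of 10 tumor epithelial markers rose and 1 fell. Of 12 fibroblast markers 5 fell and 1, Thy1, rose. Over the 24 samples 0 of the 11 T cell markers were called (median 0.97). The part of these cells in the values of the pathway genes was not tested.

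T-PNU and T-DM1, conjugates of the same antibody with different payloads and doses, gave the most called members over 24 samples. Among the 5 members not picked by their values, Fzd2 was called lower and Wnt5a higher with T-PNU. Over all genes 29.8% were called (12.4% higher and 17.4% lower). Wnt7b and Cthrc1 were called lower too. This comparison shares its T-PNU mice with the one Wnt7b and Cthrc1 were picked from. It is not independent of that choice, and the p-values of these genes are not an independent test. Wnt7b fell by 1.49 ± 0.36 (SE) on the log2 scale, to 0.357 times the T-DM1 level (limma, adjusted p = 0.00517). Cthrc1 fell by 1.58 ± 0.34, to 0.333 times (adjusted p = 0.00317), and Fzd2 by 1.23 ± 0.21, to 0.427 times (adjusted p = 0.00127). For each of these 3 genes the groups did not overlap, and the two-sided exact permutation test gave p = 0.00216, the smallest that 6 against 6 allows. That value restates the lack of overlap. The share of all genes whose groups did not overlap is not given, so this does not set the 3 genes apart. Wnt5a rose by 0.50 ± 0.14 (adjusted p = 0.0131, exact permutation p = 0.0152), with 5 of 6 T-PNU mice above all T-DM1 mice.

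The other members did not pass by limma. Fzd7 stood at -0.34 ± 0.13 (adjusted p = 0.0521), which the fit of 20 samples moved to an adjusted p of 0.0423. Fzd1 stood at -0.27 ± 0.15 (adjusted p = 0.166) and Axin2 at 0.58 ± 0.53 (adjusted p = 0.409), with a 95% interval for Axin2 from -0.52 to 1.68. With each of the 24 mice left out in turn, Fzd2 and Wnt5a stayed called in the same direction, with adjusted p (limma) of at most 0.00493 and 0.0360. The picked genes Wnt7b and Cthrc1 did so too, with adjusted p (limma) of at most 0.0186 and 0.0115, which is not independent of their choice. Fzd7 was also called without untreated B1, T-PNU G1 or A2, trastuzumab E2 or T-DM1 G3, with log2 fold changes from -0.45 (G1) to -0.34 (B1 and E2).

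**Figure D2:**
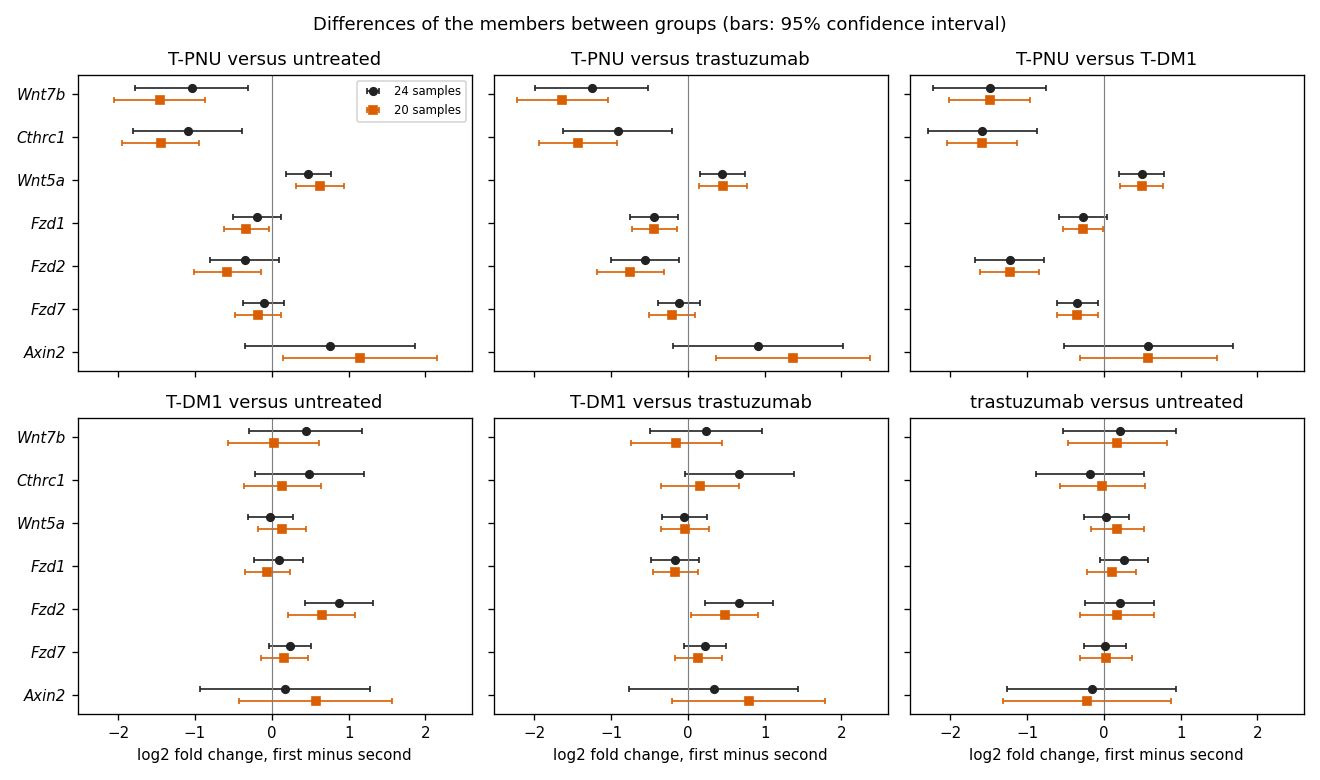
Log2 fold change (horizontal axis) of each member (vertical axis) in the 6 comparisons, with black circles for the fit of 24 samples, orange squares for the fit of 20 and bars for the 95% confidence interval. In T-PNU versus T-DM1 the unadjusted intervals of Wnt7b, Cthrc1, Fzd2 and Fzd7 lie below 0 in both fits. That of Fzd1 does so only in the fit of 20. In T-DM1 versus trastuzumab the intervals of all but Fzd2 reach across 0.

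The rest of the pathway in T-PNU against T-DM1 held 39 called genes of 100, 10 higher and 29 lower, beside 29.8% of all genes (12.4% higher and 17.4% lower), with a median log2 fold change of -0.03 over the 100 and 0.03 over all genes. The Wnt ligands were mostly lower: of 8 measured beside the members, 6 fell and 0 rose. Wnt10a fell by 1.40 ± 0.30 (adjusted p = 0.00296, limma), and Wnt9a, Wnt10b, Wnt6, Wnt11 and Wnt2b fell by 0.78, 0.77, 0.74, 0.70 and 0.20. Both genes needed to make any Wnt fell, Porcn, which attaches the lipid, by 0.50 ± 0.14 (adjusted p = 0.0126) and Wls, which carries the ligand to the surface, by 0.52 ± 0.17 (adjusted p = 0.0229).

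At the receiving end, Fzd6 fell by 0.64 ± 0.23 (adjusted p = 0.0430, limma), the 1 gene called of the 5 Frizzled genes measured beside the members. Of 10 co-receptors and alternative receptors 5 fell and 1 rose. The Wnt-binding kinase-like receptors Ryk and Ptk7 fell by 1.05 ± 0.23 and 1.05 ± 0.27 (adjusted p = 0.00348 and 0.00707), and Gpc4, Lrp5 and Ror1, the relative of the unmeasured Ror2, by 0.68, 0.63 and 0.56. Reck, which helps Wnt7 ligands reach their receptor on vessels, rose by 0.57 ± 0.21 (adjusted p = 0.0417). Rspo2 fell by 1.25 ± 0.30 (adjusted p = 0.00511) with its receptor Lgr4 (0.45 ± 0.13, adjusted p = 0.0145), the 2 genes called of 4 in their list. Of 12 inhibitors, Notum, the enzyme that removes the Wnt lipid and is itself a β-catenin target, fell by 1.17 ± 0.21 (adjusted p = 0.00128) and Apcdd1 rose by 0.23 ± 0.09 (adjusted p = 0.0472).

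Inside the cell the directions were mixed. Of 15 genes of Dishevelled and the destruction complex, 3 rose and 3 fell, Apc by 0.45 ± 0.13 upward (adjusted p = 0.0140, limma) and Csnk1e, a casein kinase, downward by -0.47 ± 0.10 (adjusted p = 0.00324). Of 15 nuclear factors 2 rose and 4 fell, with the co-repressor Tle4 at 0.71 ± 0.23 (adjusted p = 0.0254) and the repressive TCF gene Tcf7l1 at -1.33 ± 0.26 (adjusted p = 0.00186). Of 13 further feedback and target genes 3 rose and 2 fell: Fgf9 rose by 0.39 ± 0.12 (adjusted p = 0.0157), and besides Notum the growth regulator Myc fell by 0.89 ± 0.16 (adjusted p = 0.00134). Of 24 genes of the planar cell polarity and calcium branch 1 rose and 5 fell, Nfatc2 by 0.37 ± 0.09 upward (adjusted p = 0.00738) and Nfatc4 by -1.29 ± 0.24 downward (adjusted p = 0.00176).

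**Figure D3:**
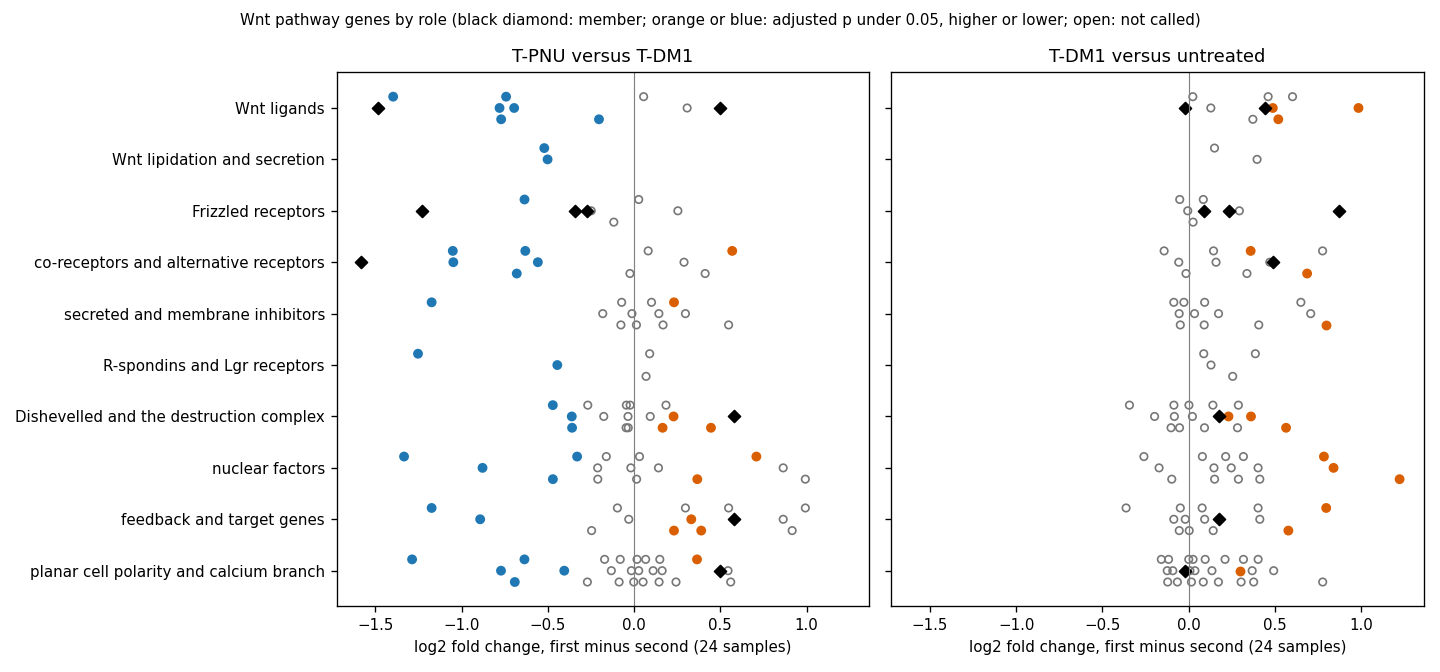
Log2 fold change (horizontal axis) of the measured pathway genes by role (vertical axis) in T-PNU versus T-DM1 and T-DM1 versus untreated, 24 samples, with black diamonds for the members, filled circles for other genes called at an adjusted p under 0.05 and open circles for the rest; a gene in several roles appears in each. In the first panel 6 of 8 ligands and both lipidation and secretion genes are called lower, and in the second panel all 14 called genes lie above 0.

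Marker genes of several cell types moved in the same comparison. Of 12 fibroblast markers 7 fell and 0 rose, from Col1a1 at -1.62 to Thy1 at 0.77, and the summed level of the list ran from 16.6 to 17.2 with T-DM1 and from 14.8 to 16.1 with T-PNU. Of 6 pan-leukocyte markers 3 rose and 0 fell, from Coro1a at 0.27 to Ptprc at 0.76, and the summed level ran from 16.3 to 16.7 and from 16.7 to 17.1. Of 9 macrophage markers 6 rose, up to Mertk at 0.93, and of 7 endothelial markers 4 rose, up to Tek at 1.02. Of 10 tumor epithelial markers 2 rose and 1 fell, from Krt8 at -0.96 to Krt14 at 1.02. The summed level of that list ran from 13.6 to 14.2 with T-DM1 and from 12.6 to 13.7 with T-PNU. Of 11 T cell markers 0 were called, with Cd28 at 1.35 (adjusted p = 0.0624, limma). The lowest means were those of the tumor epithelial markers Cldn3 (3.77), Cldn7 (4.67) and Krt14 (4.99), so the value of Krt14 rests on a low level. The part of these cell types in the differences of the members was not tested.

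Against trastuzumab alone, the T-PNU group had 0 of 7 members called over 24 samples, beside 0.00588% of all genes, and 5 of the 7 at an unadjusted p under 0.05 (limma). These were Wnt7b at -1.25 ± 0.36 (adjusted p = 0.142, exact permutation p = 0.0173), Wnt5a at 0.45 ± 0.14 (adjusted p = 0.162), Fzd1 at -0.45 ± 0.15 (adjusted p = 0.172), Cthrc1 at -0.91 ± 0.34 (adjusted p = 0.182) and Fzd2 at -0.56 ± 0.21 (adjusted p = 0.189). With no share of all genes at an unadjusted p beside it, the count of 5 does not set the members apart. For Wnt7b and Fzd1, 4 of 6 T-PNU mice lay below all trastuzumab mice. Axin2 stood at 0.92 ± 0.53 (adjusted p = 0.324) and Fzd7 at -0.12 ± 0.13 (adjusted p = 0.601). In the fit without B1, C1, E2 and B3, 28% of all genes were called (14.6% higher and 13.5% lower). Of the members not picked by their values, Wnt5a, Fzd1, Fzd2 and Axin2 (1.37 ± 0.48, adjusted p = 0.0401, limma) were called, and Fzd7 was not. The picked genes were called too, Wnt7b at -1.64 ± 0.28 (adjusted p = 0.00417) and Cthrc1 at -1.43 ± 0.24 (adjusted p = 0.00400). Their T-PNU mice are those of that pick, so this is not an independent test.

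Over the pathway this comparison gave 0 called genes of 100 on 24 samples, with 24 at an unadjusted p under 0.05, and 33 on the 20 samples, 14 higher and 19 lower, beside 28% of all genes (14.6% higher and 13.5% lower). On the 20, 5 of 8 ligands fell, with Wnt10a at -1.12 ± 0.27 (adjusted p = 0.0115, limma), and Lef1 (2.41 ± 0.82, adjusted p = 0.0372) and Tcf7 (1.51 ± 0.54, adjusted p = 0.0424) rose. In the same fit 8 of 11 T cell markers and 6 of 10 tumor epithelial markers rose, and 7 of 12 fibroblast markers fell. Krt8 of the tumor epithelial list fell and Thy1 of the fibroblast list rose. Their part in these values was not tested. The comparison again shares its T-PNU mice with the one the members were picked from.

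With T-DM1 against untreated tumors, Fzd2 was the 1 member of 7 called, beside 6.27% of all genes. It rose by 0.87 ± 0.21, to 1.83 times the untreated level (limma, adjusted p = 0.0193, exact permutation p = 0.00433). On the 20 samples it stood at 0.65 ± 0.21 (adjusted p = 0.103), and leaving out untreated C1 (0.74), T-DM1 D3 (0.81) or T-DM1 E3 (0.81) alone also ended the call, with adjusted p up to 0.0568 (limma). Cthrc1 stood at 0.49 ± 0.34 (adjusted p = 0.409), Wnt7b at 0.44 ± 0.36 (adjusted p = 0.480), Fzd7 at 0.24 ± 0.13 (adjusted p = 0.288), Axin2 at 0.18 ± 0.53, Fzd1 at 0.09 ± 0.15 and Wnt5a at -0.02 ± 0.14. The untreated mice are shared with the comparison Wnt7b and Cthrc1 were picked from.

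Of the 100 other pathway genes 14 rose and 0 fell with T-DM1, a share of 14.0% beside 4.11% of all genes that rose. Tcf7l1 rose by 1.22 ± 0.26 (adjusted p = 0.00975, limma), Wnt10a by 0.98 ± 0.30 (adjusted p = 0.0494), Notum by 0.80 ± 0.21 (adjusted p = 0.0250), Lrp5 by 0.69 ± 0.17 (adjusted p = 0.0212), Dvl3 by 0.56 ± 0.11 (adjusted p = 0.00799) and Camk2a by 0.30 ± 0.09 (adjusted p = 0.0433). On the 20 samples 3 of the 100 were called, beside 2.01% of all genes. Without untreated A1 or C1 or T-DM1 F3 the count came to 6, without untreated F1 or T-DM1 G3 to 9, without T-DM1 E3 to 5 and without T-DM1 D3 to 4. Of the fibroblast markers 4 of 12 rose, up to Col1a1 at 1.32, and 1 of 9 macrophage markers fell. The 3 red blood cell markers measured had a median of 1.07, with Alas2, of heme synthesis, called at 0.92 ± 0.27 (adjusted p = 0.0429, limma). Their part in these values was not tested.

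The 2 comparisons that remained gave few calls. Between T-DM1 and trastuzumab, which share no mice with the comparison the members were picked from, 0 of 7 members were called (0.647% of all genes), and 1 had an unadjusted p under 0.05 (limma): Fzd2 at 0.67 ± 0.21 (adjusted p = 0.144, exact permutation p = 0.0130), with 5 of 6 T-DM1 mice above all trastuzumab mice. The 95% interval of Wnt7b ran from -0.50 to 0.97 and that of Cthrc1 from -0.04 to 1.38. Of the pathway, Wnt6 rose by 0.51 ± 0.11 (adjusted p = 0.0293) and the co-repressor Tle2 by 0.72 ± 0.16 (adjusted p = 0.0323). The count of 2 came to 4 without untreated C1 or trastuzumab G2, to 1 without T-DM1 C3 or G3 and to 0 without trastuzumab E2, H2, A3 or B3 or T-DM1 D3, E3 or F3. Between trastuzumab and untreated, 0 of 7 members were called (0.259% of all genes) and 0 had an unadjusted p under 0.05. Wnt7b stood at 0.21 ± 0.36 and Cthrc1 at -0.18 ± 0.34. The secreted inhibitor Sfrp4 rose by 1.25 ± 0.20 (adjusted p = 0.0186, limma) and the glypican Gpc3 by 0.99 ± 0.20 (adjusted p = 0.0366). Neither was called on the 20 samples (Sfrp4 0.96, adjusted p = 0.471, and Gpc3 0.75, adjusted p = 0.752), where 0% of all genes were. The count of 2 came to 5 without trastuzumab H2, to 4 without untreated E1, to 1 without trastuzumab A3 and to 0 without untreated B1, D1 or F1 or trastuzumab E2, F2 or B3.

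Over the 24 mice 5 of the members moved together, and Axin2 ran against them. Wnt7b and Cthrc1 were alike (Pearson r = 0.93, Spearman rho = 0.84), also with the group means removed (r = 0.91), and Fzd2 followed both (r = 0.78 with Wnt7b and 0.81 with Cthrc1). Fzd7 followed Wnt7b (r = 0.71), Fzd2 (0.72) and Fzd1 (0.66). Axin2 ran against Fzd1 (r = -0.72), Fzd7 (-0.58), Wnt7b (-0.51) and Cthrc1 (-0.50), and these 4 came to -0.69, -0.63, -0.44 and -0.49 with group means removed. Wnt5a ran against Wnt7b (-0.56), which came to -0.23 with group means removed. These values are a description over mice that share groups, with no test, since members were chosen for their values in the same mice.

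**Figure D4:**
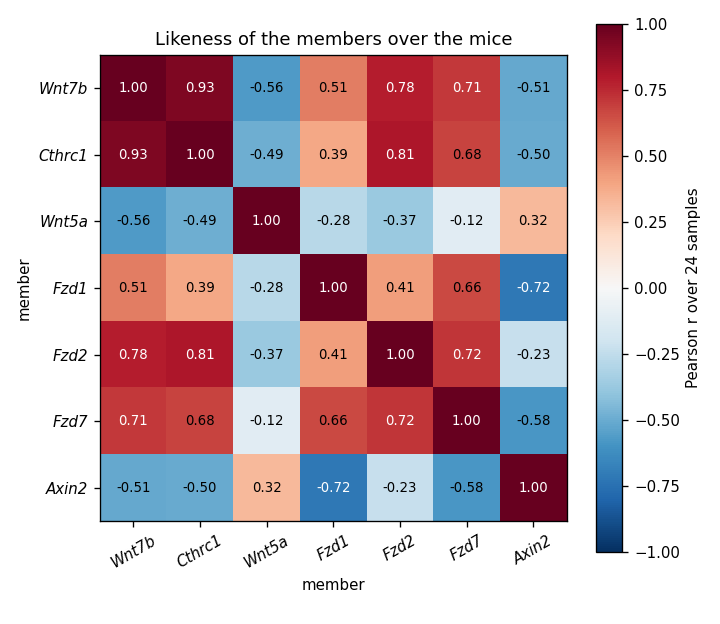
Pearson r over 24 samples between each pair of members (both axes), from blue for -1 to red for 1. Wnt7b, Cthrc1, Fzd1, Fzd2 and Fzd7 are positive with each other, from 0.39 to 0.93, and Axin2 is negative with all 5, from -0.72 to -0.23.

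The genes most like Wnt7b over the 24 mice were Ncs1, Tenm4, Dusp9, Kalrn and Usp43, with r from 0.972 to 0.975. Those most like Cthrc1 were Scd2, Kdelr3, Tead2, Col12a1 and Halr1, with r from 0.962 to 0.974. Scd2 is a fatty acid desaturase, Col12a1 a fibril-associated collagen and Tead2 a DNA-binding partner of Yap. Within the pathway lists, Ryk, Rspo2, Wnt10a, Wnt10b and Fzd6 were most like Wnt7b (r from 0.89 to 0.95), and Tcf7, Znrf3, Celsr1, Lef1 and Tnfrsf19 most like Axin2 (r from 0.93 to 0.95). Among the genes of these lists, Cd44 ran most against Axin2, at r = -0.88.

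Marker levels, each the mean deviation of a list's genes from their 24-sample means, also moved with the members. Wnt7b and Cthrc1 were picked for their values in these mice, so their relations are a description with no p. For the 5 other members and the fibroblast, tumor epithelial and T cell levels, 11 of 15 relations had an adjusted p under 0.05 (permutation test of Pearson r, 100000 resamples, adjusted over the 21 relations of all 7 members), 10 on the 20 samples, 8 with the group means removed and 8 by Spearman rho. The share of all genes that would pass the same test is not given, so this count does not set the members apart. The fibroblast level followed Fzd2 (r = 0.82, adjusted p = 0.000105, rho = 0.80, adjusted p = 0.000105), with r = 0.75 without untreated C1 and T-PNU C2, the 2 mice farthest from the median fibroblast level, and r = 0.66 with group means removed. For Wnt7b and Cthrc1 it stood at r = 0.72 and 0.62 (rho = 0.61 and 0.56), at 0.54 and 0.45 without these mice and at 0.66 and 0.51 with group means removed. The fibroblast level includes Thy1, which stood at 0.77 in T-PNU versus T-DM1 where most of the list was lower.

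Axin2 followed the T cell level (r = 0.87, adjusted p = 0.000105, rho = 0.79, adjusted p = 0.000105), with r = 0.81 without B1 and C2 and r = 0.87 with group means removed. The T cell level ran against Cthrc1 (r = -0.77, rho = -0.79) and Wnt7b (r = -0.72, rho = -0.74), with r = -0.77 and -0.70 without B1 and C2. The tumor epithelial level stood at r = -0.34 (rho = -0.39) with Wnt7b and r = -0.37 (rho = -0.46) with Cthrc1. Its list was split in T-PNU versus T-DM1, with Krt8 at -0.96 and Krt14 at 1.02. The summed level of the list was lowest in C2 (12.62), H1 (12.85), C1 (13.01) and E2 (13.22). These mice held the lowest Cthrc1 values, and C2, H1 and C1 the lowest of Wnt7b. T-PNU B2 stood higher (13.71) at a low Wnt7b of 8.40. The relation of the summed level with the members was not tested. The tumor epithelial level had relations with the 3 Frizzled genes that did not pass. It followed Axin2 (r = 0.53, adjusted p = 0.0145, rho = 0.58, adjusted p = 0.00919), with r = 0.56 without T-PNU mice B2 and G1 and, with group means removed, r = 0.43 (adjusted p = 0.0537, permutation test). It also followed Wnt5a (r = 0.62, adjusted p = 0.00302, rho = 0.47, adjusted p = 0.0363), a relation that came to r = 0.29 without B2 and G1 and so rests on them.

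Levels of 6 further cell types were added after the data had been seen. For the 5 other members 8 of 30 relations were called (adjusted over the 42 of all 7 members), and 6 with group means removed. Here too the share of all genes that would pass is not given. The pan-leukocyte level ran against Fzd2 (r = -0.74, adjusted p = 0.000525, rho = -0.68, adjusted p = 0.00378), with r = -0.65 without C1 and C2 and r = -0.57 with group means removed. For Wnt7b and Cthrc1 it stood at r = -0.86 and -0.85 (rho = -0.76 for both), at -0.81 and -0.82 without C1 and C2, and at -0.81 and -0.72 with group means removed. Untreated C1 and trastuzumab E2, the mice lowest in both genes within their groups, had the highest pan-leukocyte level of those groups (0.47 and 0.29 above the mean of the 24 samples). The red blood cell level followed Fzd2 (r = 0.55, adjusted p = 0.0181, rho = 0.65, adjusted p = 0.00616), with r = 0.62 without A1 and G1 and, with group means removed, r = 0.40 (adjusted p = 0.154, permutation test). Axin2 followed the B cell level (r = 0.81, adjusted p = 0.000140, rho = 0.84, adjusted p = 0.000420), with r = 0.80 without A1 and E2 and also with group means removed. The macrophage level stood at r = -0.34 with Wnt7b and -0.37 with Cthrc1.

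**Figure D5:**
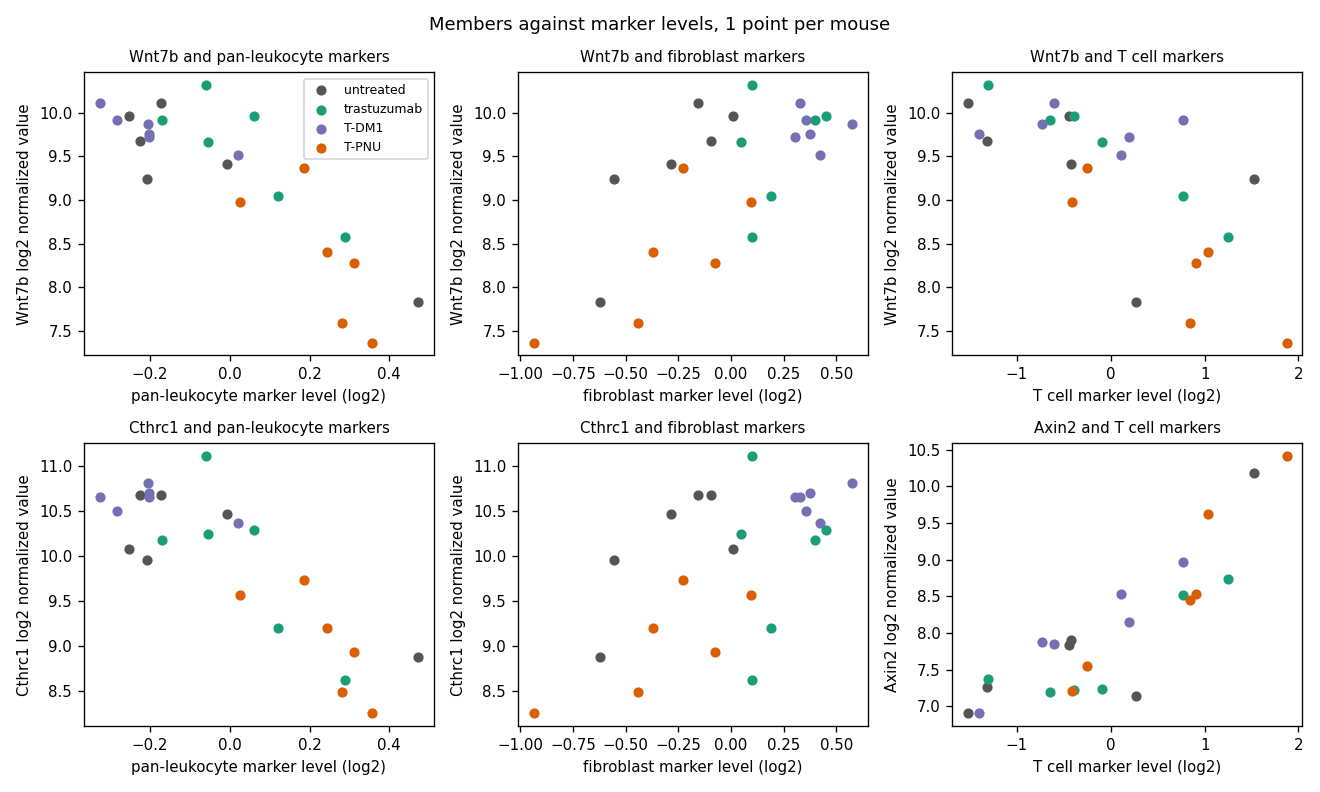
Log2 normalized value of Wnt7b, Cthrc1 or Axin2 (vertical axis) against the level of pan-leukocyte, fibroblast or T cell markers (horizontal axis, log2 deviation from the 24-sample mean), 1 point per mouse and a color per group. Wnt7b and Cthrc1 are lower at a higher pan-leukocyte level over the 24 mice, and Axin2 is higher at a higher T cell level.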

How the data were processed

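RNA of CD45+ cells (200 ng input) was sequenced by the study as 1 stranded poly(A) library per mouse. The authors aligned reads with STAR 2.4.2a to mm10, counted them per gene with featureCounts (Subread 1.5.0), removed genes with low average counts and deposited log2 normalized values of 16996 genes, which were used as given. The transformation is not given in the sources used here, counts were not recovered and the depth is unknown, so no counting interval is printed. Differences between groups came from limma 3.58.1 under R 4.3.3 (4 groups in 1 fit, no covariate, eBayes with a trend), adjusted over all genes by Benjamini-Hochberg and called at an adjusted p under 0.05. Exact permutation tests were two-sided. Correlations used 100000 permutations in SciPy 1.17.1.

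The members and lists were chosen with earlier results of these data known. Named genes are the members, the called gene with the largest rise and fall per role list (or, with none called, the largest difference of T-PNU from untreated), the 5 genes most like Wnt7b and Cthrc1 and the extremes of each marker list; other genes were named after their values were seen. The role lists held 127 genes beside the members, of which 100 were measured, and the 9 marker lists 73 genes, of which 70 were measured. GENCODE M21 (GRCm38) gave exon lengths and RefSeq gave promoters. Group labels came from the agent given for each sample, and the sample titles matched the value columns to the samples. Nothing says that the mice of a group came from separate experiments, so p-values cover the spread between these mice. Alternatives were the 20 samples of the heatmaps, quantile normalization, filters on low values, an offset of 16, no trend, sample weights, fits of 2 groups and each mouse left out. The fit was tested on simulated data.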

Additional observations from a re-analysis of the deposited data

Results flagged for a closer look

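In 28 sets of 1 member in 1 group of 6 mice, the gap of the lowest or highest mouse to its nearest neighbor was compared with the range of the group, and 2 sets exceeded Dixon's 95% critical value. Chance alone flags about 1 in 20 such sets. Both were untreated mouse B1, which the study's heatmaps leave out. Fzd1 in B1 was 8.87, with the nearest untreated mouse at 9.64, and Axin2 in B1 was 10.19, with the nearest at 7.90. Without B1, the log2 fold change of T-PNU over untreated came to 1.22 for Axin2 and -0.33 for Fzd1.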

How the results depend on the processing

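The counts of pathway genes called moved most with the sample set and with sample weights. On the 20 samples of the heatmaps they came to 31 of 100 for T-PNU versus untreated, 3 for T-DM1 versus untreated, 0 for trastuzumab versus untreated, 33 for T-PNU versus trastuzumab and 1 for T-DM1 versus trastuzumab. For the first 4 of these, 31.1%, 2.01%, 0% and 28% of all genes were called. With sample weights the counts came to 33, 29, 5, 10 and 7 in the same order of comparisons. With only genes above the median mean they came to 1 for T-PNU versus untreated, 6 for T-DM1 versus untreated, 0 for trastuzumab versus untreated, 20 for T-PNU versus T-DM1 and 0 for T-DM1 versus trastuzumab, with fewer genes tested. Fits of the 2 groups compared gave 9 for T-DM1 versus untreated, 0 for trastuzumab versus untreated and 4 for T-DM1 versus trastuzumab, and an offset of 16 gave 4 for the last. Leaving out 1 mouse gave 0 to 8, 4 to 19, 0 to 5, 26 to 40, 0 to 0 and 0 to 4 for T-PNU versus untreated, T-DM1 versus untreated, trastuzumab versus untreated, T-PNU versus T-DM1, T-PNU versus trastuzumab and T-DM1 versus trastuzumab. Here and above, the share of all genes called with weights, filters, fits of 2 groups, the offset or 1 mouse left out is not given. These counts therefore do not set the pathway apart from other genes. With group means removed, 5 of the 10 genes most like Wnt7b and Cthrc1 were the same. Where not stated, the cause was not tested.

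Members whose direction turned were uncalled. For T-DM1 versus untreated, Wnt5a came to 0.13 on the 20 samples and 0.087 with weights, and Fzd1 to -0.059 and -0.0088. Fzd7 came to -0.0076 for trastuzumab versus untreated after quantile normalization, and Wnt7b to -0.15 for T-DM1 versus trastuzumab on the 20 samples. Leaving out 1 mouse gave log2 fold changes for T-DM1 versus untreated from -0.071 to 0.048 (Wnt5a), -0.053 to 0.13 (Fzd1) and -0.019 to 0.64 (Axin2). For trastuzumab versus untreated it gave -0.10 to 0.41 (Wnt7b), -0.43 to 0.083 (Cthrc1), -0.023 to 0.096 (Wnt5a), -0.044 to 0.057 (Fzd7) and -0.36 to 0.30 (Axin2), and for T-DM1 versus trastuzumab -0.082 to 0.0011 (Wnt5a). No paired analysis was possible because the labels give no replicate numbers that groups share. Depth is unknown, so what it limits cannot be given.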
